A study of Arabidopsis thaliana with 24 samples.

Results

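Of 22830 genes measured at both times in Arabidopsis thaliana seedlings, 41 had at least 1 unit more mean log2(TPM + 1) in 3 ino80 libraries than in 3 Col libraries in each of 4 settings, 21 °C and 27 °C after 1 h and 21 °C and 27 °C after 12 h. TPM is a transcript's share of a library, corrected for gene length. The members were chosen by these genotype differences, so their size and direction are a description and carry no test. By the same rule in the opposite direction, 60 genes were lower in all 4 settings.

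The study compared ino80-5, a mutant of the chromatin remodeller gene INO80, with its Col wild type, as whole seedlings of 7 days raised in short days at 21 °C. They then stayed at 21 °C or were moved to 27 °C, for 1 h or for 12 h. The 8 groups were Col and ino80-5 at 21 °C for 1 h, at 27 °C for 1 h, at 21 °C for 12 h and at 27 °C for 12 h, with 3 libraries each and 24 in all. All groups share the Col background and the growth at 21 °C, the mutant is a single allele, and the labels do not say whether libraries came from separate batches of seedlings, so p-values measure the spread between these libraries.

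INO80 is the ATPase of a complex that slides and spaces nucleosomes with the energy of ATP, and it is known for its ties to the histone variant H2A.Z. Its loss in plants has been studied for flowering time, DNA repair and growth in warmth. Nucleosome remodellers can hold genes down as well as up.

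INO80 itself had lower mean TPM in ino80 in every setting. It was 18.7 ± 1.65 in Col and 13.5 ± 1.18 in ino80 at 21 °C and 1 h, and 15.8 ± 1.26 against 11.3 ± 0.367 at 27 °C and 1 h (SD, n = 3). At 12 h it was 21.6 ± 1.42 against 16.8 ± 0.573 at 21 °C, and 43.4 ± 5.73 against 28.7 ± 5.15 at 27 °C. The differences on the log2(TPM + 1) scale were -0.44 (limma, adjusted p = 0.00078), -0.45 (adjusted p = 0.00058), -0.34 (adjusted p = 0.046) and -0.59 (adjusted p = 0.0019), in the order of the settings above, and the call at 21 °C and 12 h was lost with a pseudocount of 5, with no filter and in 7 of 12 fits that left out a library. The transcript was thus reduced and not at 0, and the files give 1 value per gene, which does not show where in the gene the RNA lies. From the steps between low TPM values, 1 fragment in 1 kb of a gene was worth an estimated 0.0666 to 0.129 TPM at 1 h and 0.107 to 0.126 TPM at 12 h. The summed TPM of 10 green shoot genes, which a seedling should hold in quantity, ran from 44517 to 107310 over all libraries. That of 14 root genes ran from 117 to 295, so root RNA was present in all libraries, and its sum went in different directions between genotypes. At 27 °C and 1 h it was 268 to 295 in Col against 222 to 261 in ino80, and at 21 °C and 12 h 117 to 209 against 174 to 256. In such bulk samples, more cells of a type and more RNA per cell cannot be told apart.

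The members lay at low to middle levels in Col and at middle levels in ino80. The median over members of the mean TPM was 4.32 in Col and 18.2 in ino80, where the median of all genes in both tables was 11.8. In 4 members the Col mean was under 1 TPM in all settings, in 13 it was under 1 in at least 1 setting, and in 9 it was 5 or more in all. Since 1 was added to each TPM before taking logs, the differences understate the change of the low genes. The median member difference was 1.49 at 21 °C and 1.36 at 27 °C after 1 h, and 1.59 and 1.75 after 12 h, while the median of all genes lay between -0.025 and 0.046. Averaged over the 4 settings, 11 members differed by 2 or more and 19 by less than 1.5. The difference was larger at 12 h than at 1 h in 25 members and smaller in 16.

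**Figure D1:**
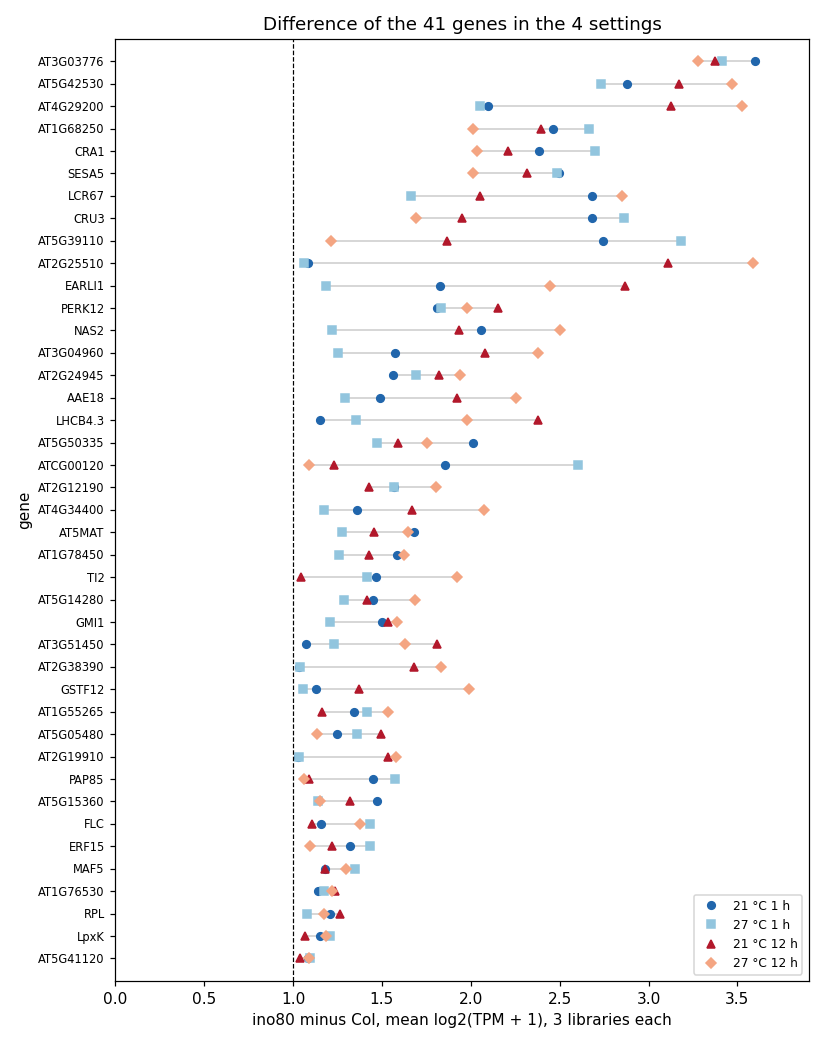
Difference in mean log2(TPM + 1), ino80 minus Col (x axis), for each of the 41 genes (y axis, ordered by their mean), with 1 symbol per setting and a grey line from the lowest to the highest. The dashed line marks the threshold of 1, AT3G03776 stands at the top with values from 3.28 to 3.60, and AT2G25510 spans 1.06 to 3.58.

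All 41 members were also called higher in ino80 in each setting by limma at adjusted p < 0.05, which the choice of members nearly fixes and from which nothing is read. Among all tested genes the share called higher was 15.4% at 21 °C and 1 h, 17.1% at 27 °C and 1 h, 16.7% at 21 °C and 12 h and 18.7% at 27 °C and 12 h. In 39 of the 41, all 3 ino80 libraries lay above all 3 Col libraries in each of the 4 settings, where 5.22% of all genes in both tables did so, and the rule again used that contrast. The exceptions were the seed storage genes SESA5 and CRU3 at 27 °C and 12 h. The 4 members closest to the threshold were AT2G19910, with a lowest difference of 1.026, AT2G38390 with 1.032, AT5G41120 with 1.041 and TI2 with 1.045. Just outside it were SUVR1, a relative of histone methyltransferases, with 0.996, the defensin gene PDF2.1 with 0.987, AT4G37900 with 0.967 and SIEL with 0.967. A further 37 genes met the threshold in 3 settings only, so its edge is not a gap. With libraries rescaled by the median of ratios, PAP85 no longer met it.

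The 4 members that encode seed storage proteins or their relatives are CRA1 and CRU3, which encode 12S cruciferins, SESA5, a 2S albumin, and PAP85, a vicilin-like protein. These are nitrogen reserves laid down in the maturing embryo and used up after germination. CRA1 had 7.12, 9.45 and 6.03 TPM in the Col libraries at 21 °C and 1 h and 42.3, 44.7 and 41.5 in the ino80 libraries. At 27 °C and 1 h it had 6.31, 6.59 and 7.93 against 50.6, 52.6 and 48.3. At 21 °C and 12 h the values were 0.77, 1.94 and 3.47 against 9.78, 13.5 and 13.6, and at 27 °C and 12 h 2.95, 2.29 and 8.57 against 14.1, 21.7 and 24. The CRA1 groups were far apart in all settings, by 2.38, 2.70, 2.21 and 2.03 on the log2 scale.

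SESA5 was more scattered. At 21 °C and 1 h it had 3.81, 7.07 and 0.376 TPM in Col against 14.7, 26.5 and 21 in ino80, and at 27 °C and 1 h 6.02, 0.325 and 11.2 against 26.3, 24.3 and 28. At 21 °C and 12 h it had 0.13, 2.59 and 0.945 against 7.27, 8.46 and 11.5. At 27 °C and 12 h the groups overlapped, with 0.136, 1.84 and 8.61 in Col and 3.87, 22 and 17.2 in ino80. CRU3 overlapped in the same setting, where its highest Col library had 7.65 TPM and its lowest ino80 library 5.47. Its means were 1.67 ± 0.785 against 15.6 ± 1.47 at 21 °C and 1 h, 2.15 ± 2.37 against 18.4 ± 2.26 at 27 °C and 1 h, 1.03 ± 1.04 against 6.51 ± 2.41 at 21 °C and 12 h and 3.08 ± 3.95 against 9.22 ± 3.38 at 27 °C and 12 h (SD, n = 3). PAP85, the lowest of the 4, had 1.97 ± 0.592 against 7.02 ± 0.865 TPM at 21 °C and 1 h, 1.93 ± 1.04 against 7.31 ± 0.609 at 27 °C and 1 h, 0.25 ± 0.135 against 1.86 ± 1.34 at 21 °C and 12 h and 1.91 ± 0.752 against 5.03 ± 1.22 at 27 °C and 12 h. In PAP85, as in the other members of this group, the ino80 mean was above the Col mean in each setting.

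Replicates differed more in these genes than in most members, and the same held for AT1G68250 and LCR67, which are described further on and were added here after their values were seen. The SD of log2(TPM + 1), pooled over the 8 groups, was 1.08 for SESA5, 0.777 for the defensin-family gene LCR67, 0.713 for CRU3, 0.654 for the uncharacterized AT1G68250, 0.426 for CRA1 and 0.392 for PAP85, against a median of 0.187 over all members. Their scatter was also shared in some groups. In Col at 27 °C, all 6 of these genes were highest in replicate 3 at 1 h and in replicate 3 at 12 h, and in ino80 at 12 h all 6 were lowest in replicate 1 at 21 °C and in replicate 1 at 27 °C. What these libraries share was not tested.

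**Figure D2:**
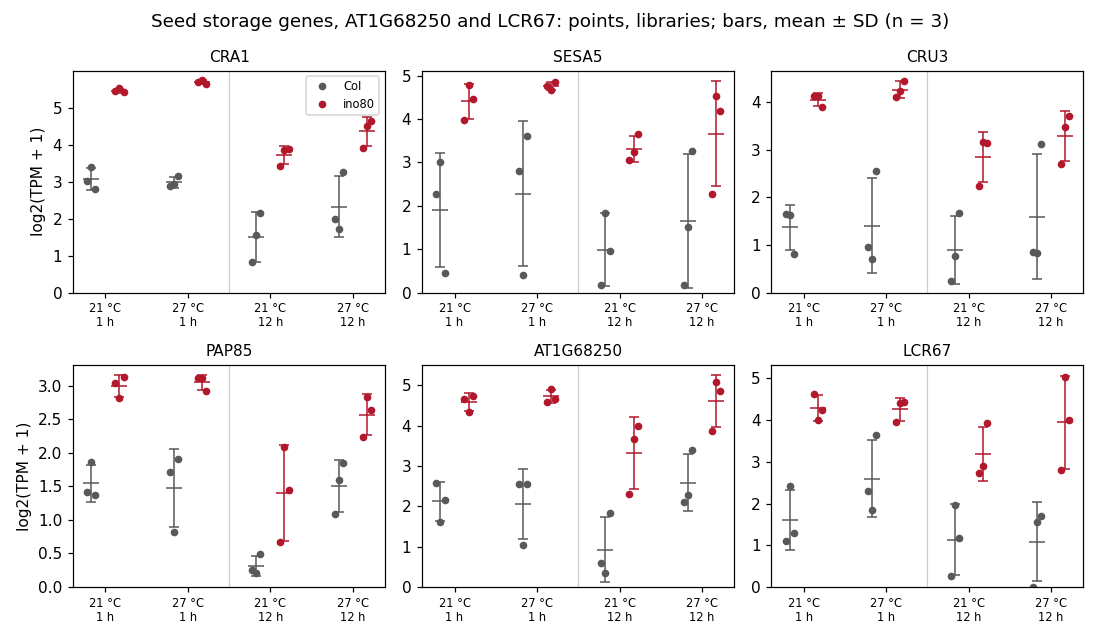
Log2(TPM + 1) of CRA1, SESA5, CRU3, PAP85, AT1G68250 and LCR67 (y axis) in each of the 4 settings (x axis), with Col in grey and ino80 in red, 1 point per library and bars for mean ± SD (n = 3). The ino80 means lie above the Col means in all panels, and SESA5 and CRU3 overlap between genotypes at 27 °C and 12 h.

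The other genes of seed maturation did not all move with these 4. Of 16 others tested at 1 h, 7 were called higher and 4 lower in ino80 at 21 °C, and 9 higher and 2 lower at 27 °C. Of all tested genes, 15.4% and 17.1% were called higher there and 20.5% and 20.4% lower. At 12 h, 5 of 15 others were higher and 1 lower at 21 °C, and 1 was higher and 4 lower at 27 °C. The shares of all tested genes were 16.7% and 18.7% higher and 12.1% and 11.5% lower. The median difference of these other seed genes was 0.56 and 0.53 at 1 h, and 0.54 and 0.06 at 12 h, against medians of all tested genes between -0.027 and 0.053. The albumin genes SESA1 and SESA2 differed at 1 h by 2.14 (adjusted p = 8.8e-05) and 1.75 (adjusted p = 0.00037) at 21 °C, but at 27 °C and 12 h SESA1 differed by -0.23 (adjusted p = 0.65) and SESA2 by 0.57 (adjusted p = 0.44). M17, a late embryogenesis gene, was higher at 12 h, with 4.22 ± 0.903 TPM in Col and 23.8 ± 7.09 in ino80 at 21 °C (SD, n = 3, adjusted p = 9.6e-06), and with a difference of 1.59 ± 0.234 (SE, adjusted p = 0.00015) at 27 °C. At 1 h M17 differed by 0.73 at 21 °C (adjusted p = 0.055) and by 1.49 at 27 °C (adjusted p = 0.00065). EM6, another gene of that class, was lower in ino80 at 21 °C and 1 h, with 29.4 ± 1.78 against 19 ± 5.34 TPM (adjusted p = 0.0039). The regulators of embryo maturation LEC2 and FUS3 stayed under 1 TPM in all group means, and ABI3 was higher at 1 h, by 0.42 at 21 °C (adjusted p = 0.0044), and lower at 21 °C and 12 h, by -0.56 (adjusted p = 0.043).

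The RY repeat, CATGCATG, is the element through which B3-domain regulators such as ABI3 act in seed genes, and it reads the same on both strands. It was found in the 250 bases before the annotated gene start in 3 of 40 members with a sequence, 7.5%, and in 0.7% of 22690 genes. The 8 motifs searched, the evening element below among them, were chosen with earlier results of these data known. Their shares carry no test. The windows are shown because 2 of the 3 members that hold it, PAP85 and SESA5, are seed storage genes, and the third, AT5G42530, is an uncharacterized gene with a large difference. They run 5′ to 3′ on the gene's strand, from RefSeq's TAIR10.1 genome and gene starts, with the repeat in capitals.
PAP85: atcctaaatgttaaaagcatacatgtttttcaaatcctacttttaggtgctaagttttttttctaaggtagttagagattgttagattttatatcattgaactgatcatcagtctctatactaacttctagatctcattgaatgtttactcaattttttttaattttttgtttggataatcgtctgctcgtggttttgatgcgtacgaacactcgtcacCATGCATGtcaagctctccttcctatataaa
SESA5: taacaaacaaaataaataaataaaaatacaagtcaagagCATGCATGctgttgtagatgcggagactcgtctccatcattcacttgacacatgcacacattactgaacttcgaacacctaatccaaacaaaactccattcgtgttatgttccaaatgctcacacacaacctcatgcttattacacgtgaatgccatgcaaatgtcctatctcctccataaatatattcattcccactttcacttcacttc
AT5G42530: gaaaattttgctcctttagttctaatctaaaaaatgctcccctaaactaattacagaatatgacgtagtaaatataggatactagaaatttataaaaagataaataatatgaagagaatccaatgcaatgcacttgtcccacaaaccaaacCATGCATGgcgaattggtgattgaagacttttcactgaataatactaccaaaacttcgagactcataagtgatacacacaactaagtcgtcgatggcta
The repeat ends 23 bases before the annotated start of PAP85, 91 before that of AT5G42530 and 203 before that of SESA5. A match is a description of the letters and not a bound site, and the windows of CRA1 and CRU3 did not hold these letters.

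FLC, the MADS-box repressor of flowering, and its relative MAF5 were the members from the flowering pathway. FLC had 5.23, 5.74 and 5.64 TPM in Col and 12.7, 14.6 and 13.4 in ino80 at 21 °C and 1 h, and 4.34, 4.17 and 4.49 against 13.5, 13.2 and 13.5 at 27 °C and 1 h. At 12 h it had 5.97, 7.33 and 6.47 against 15.8, 16.1 and 14.2 at 21 °C, and 6.75, 7.88 and 8.76 against 23.3, 21.5 and 20.4 at 27 °C. The FLC groups did not overlap in any setting, and the difference stayed between 1.11 and 1.43. A long noncoding RNA gene is annotated on the opposite strand over 6067 bases of FLC, and since no source used here says whether reads were counted by strand, its RNA and that of FLC cannot be told apart. MAF5 was at a lower level than FLC, with 0.481, 0.663 and 0.519 TPM in Col and 2.82, 2.52 and 2.23 in ino80 at 21 °C and 1 h, and 1.81, 2.23 and 1.61 against 6.43, 6.41 and 5.43 at 27 °C and 12 h. Its difference was among the steadiest, from 1.18 to 1.35.

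Of 7 other flowering genes tested, 2 were higher and 2 lower in ino80 at 21 °C and 1 h, 4 higher and 2 lower at 27 °C and 1 h, 0 higher and 2 lower at 21 °C and 12 h, and 3 higher and 1 lower at 27 °C and 12 h. Over all tested genes the shares higher were 15.4%, 17.1%, 16.7% and 18.7% and those lower 20.5%, 20.4%, 12.1% and 11.5%, in the order of the settings. The FLC relatives MAF2 and MAF3 were higher at 1 h, by 0.53 and 0.52 at 21 °C (adjusted p = 9.9e-05 and 0.00024) and by 0.77 and 0.51 at 27 °C (adjusted p = 2.9e-06 and 0.00027). At 12 h they differed by 0.27 and 0.25 at 21 °C (adjusted p = 0.076 and 0.11). At 27 °C and 12 h both passed, with 0.307 and 0.396 (adjusted p = 0.044 and 0.014). MAF1, known as FLM, differed by -0.14, 0.07, -0.05 and 0.12 in the order of the settings, none of which passed (lowest adjusted p = 0.29). SOC1, an activator of flowering known as a target of FLC repression, was lower at 1 h, with 3.73 ± 0.506 TPM in Col against 1.73 ± 0.218 in ino80 at 21 °C (adjusted p = 7.5e-05). It differed by -0.599 at 27 °C and 1 h (adjusted p = 0.00077). At 12 h SOC1 differed by -1.135 at 21 °C (adjusted p = 0.0008) and by -0.544 at 27 °C (adjusted p = 0.055). FRI, also on the flowering list, was lower at 1 h, by -0.28 at 21 °C (adjusted p = 0.044) and by -0.41 at 27 °C (adjusted p = 0.0046). FT, which encodes the mobile flowering signal, was under 0.1 TPM in every group mean at 1 h and was not in the 12 h table.

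Both FLC and MAF5 hold the evening element, AAAATATCT on either strand, which clock proteins bind in evening-phased genes. It was in 5 of 40 members, 12.5%, and in 2.4% of all 22690 windows, and the other three were EARLI1, AT3G51450 and RPL. The windows of the flowering repressors are shown with the element in capitals, on the gene's strand and from the same source, and that of FLC overlaps the noncoding gene on the opposite strand.
FLC: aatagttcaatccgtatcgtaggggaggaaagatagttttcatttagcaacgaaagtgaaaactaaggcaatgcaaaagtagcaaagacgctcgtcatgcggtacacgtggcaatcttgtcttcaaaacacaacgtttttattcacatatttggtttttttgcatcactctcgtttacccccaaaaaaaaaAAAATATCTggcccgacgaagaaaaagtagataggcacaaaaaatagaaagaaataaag
MAF5: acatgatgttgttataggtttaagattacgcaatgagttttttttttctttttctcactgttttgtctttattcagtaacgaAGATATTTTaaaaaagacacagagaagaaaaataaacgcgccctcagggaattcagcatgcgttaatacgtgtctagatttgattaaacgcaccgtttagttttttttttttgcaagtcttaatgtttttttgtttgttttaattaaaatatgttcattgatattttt
The element ends 50 bases before the start of FLC and 159 bases before that of MAF5, and in MAF5 it lies on the opposite strand. Of the other motifs searched on both strands, the G-box CACGTG was in 8 of 40 windows and in 7.3% of all, and the heat shock element GAANNTTC in 4 of 40 and in 9.4% of all. The W-box core TTGACC was in 4 of 40 against 12.3%, the site II element TGGGCC in 2, 5.0% against 15.2%, GAGAGAGA in 1, 2.5% against 4.7%, and the telo-box AAACCCTAA in 0 against 2.1%.

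GSTF12, also called TT19, and AT5MAT act late in the anthocyanin pathway. The first encodes a glutathione transferase that anthocyanin needs to reach the vacuole, and the second adds a malonyl group to the pigment. GSTF12 had 30.7, 35.1 and 30.7 TPM in Col and 76.2, 65.5 and 72.6 in ino80 at 21 °C and 1 h, and 45.3, 44.6 and 38.9 against 92, 89 and 89.6 at 27 °C and 1 h. At 21 °C and 12 h it had 21.8, 38.6 and 42 against 116, 80.3 and 69.6. At 27 °C and 12 h it was down to 0.815, 0.377 and 0.0989 TPM in Col and 3.13, 9.46 and 2.97 in ino80. The gene thus fell to a small part of its 21 °C level in both genotypes, and the ino80 libraries stayed above the Col libraries throughout.

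AT5MAT had 13.9, 12.4 and 13.2 TPM in Col and 43.6, 43.9 and 45.4 in ino80 at 21 °C and 1 h, and 0.453, 0.54 and 0.354 against 3.42, 4.79 and 2.64 at 27 °C and 12 h. Of 18 other genes of the pathway tested at 1 h, 9 were higher and 3 lower in ino80 at 21 °C, and 9 higher and 2 lower at 27 °C. Of 16 tested at 12 h, 9 were higher and 0 lower at 21 °C, and 8 higher and 0 lower at 27 °C. Of all tested genes, 15.4% and 17.1% were higher at 1 h and 16.7% and 18.7% at 12 h. Those lower were 20.5% and 20.4% at 1 h and 12.1% and 11.5% at 12 h. DFR, the reductase that opens the anthocyanin branch, came close to the rule, with differences of 1.38, 0.90, 1.64 and 2.06 (adjusted p = 1.9e-09, 2e-07, 0.00081 and 0.00011 in the order of the settings). Its neighbours in the branch LDOX, UF3GT and UGT75C1 were also higher in all 4 settings, by 1.07, 1.32 and 1.02 at 21 °C and 1 h and by 1.99, 1.30 and 0.82 at 27 °C and 12 h (highest adjusted p = 0.025). The regulator TT8 was higher at 1 h by 1.42 and 1.29 and at 21 °C and 12 h by 0.84 (adjusted p = 7.5e-08, 2.4e-07 and 0.0019), and differed by 0.37 at 27 °C and 12 h (adjusted p = 0.11). EGL3, a regulator of the same class, was lower at 1 h, by -0.63 and -0.66 (adjusted p = 0.00023 and 0.00014). F3H, an early enzyme of the pathway, differed by -0.10 and -0.09 at 1 h (adjusted p = 0.082 and 0.09) and by 0.60 and 0.78 at 12 h, where the second passed (adjusted p = 0.06 and 0.017).

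Other members encode regulators. RPL, a homeodomain protein that patterns stem and fruit, had 9.23, 8.58 and 7.81 TPM in Col and 21.3, 21.8 and 19.9 in ino80 at 21 °C and 1 h, and 9.73, 10.9 and 10.8 against 26, 23.2 and 25.6 at 27 °C and 12 h. ERF15, of the ethylene response factor family, had 7.69, 9.14 and 8.41 against 22.3, 21.5 and 23.7 TPM at 21 °C and 1 h, and 2.67, 2.06 and 1.84 against 4.32, 7.85 and 5.58 at 27 °C and 12 h. Neither gene's groups overlapped. AT4G34400, annotated as a B3-like transcription factor, was low, with 0.449 TPM as the mean of the 12 Col libraries and 3.5 as that of the 12 ino80 libraries. AT5G14280, annotated as a storekeeper-like DNA-binding protein, had 1.75 against 6.66. AT2G19910, annotated as an RNA-dependent RNA polymerase, had 2.52 against 7.94 and was the member closest to the threshold. Of the 13 gene lists examined, 4 held members. None of the genes on the lists of silenced and imprinted loci or of floral homeotic and KNOX genes was a member. Of 17 floral homeotic and KNOX genes, 5 were tested, with 1 called higher at 21 °C and 1 h, 2 in each other setting and 0 lower. Among all tested genes 15.4% to 18.7% were higher and 11.5% to 20.5% lower. The floral gene PI was higher in all 4 settings, by 1.09, 0.64, 0.79 and 1.24 (limma, highest adjusted p = 0.013).

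**Figure D3:**
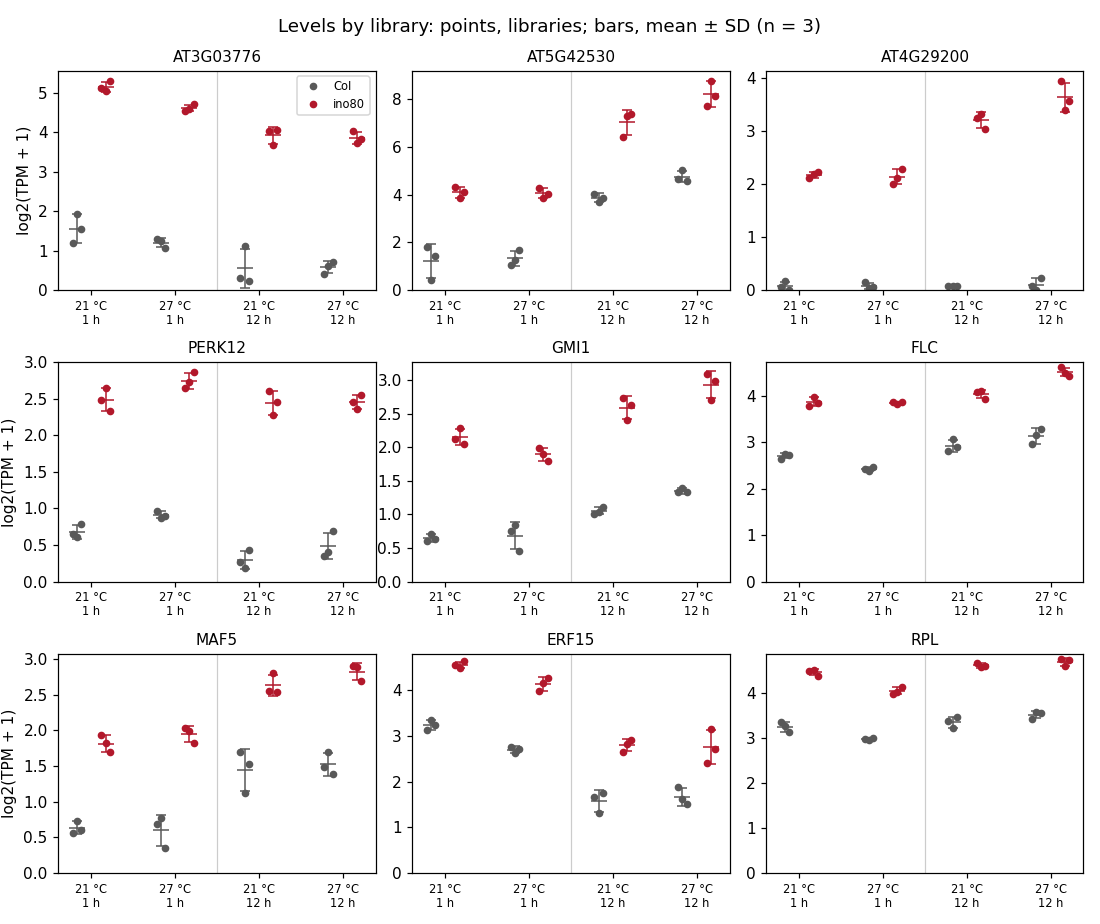
Log2(TPM + 1) of 9 members (y axis) in the 4 settings (x axis), with Col in grey and ino80 in red, 1 point per library and bars for mean ± SD (n = 3). No panel shows an overlap between genotypes, AT4G29200 is near 0 in all Col libraries, and the left and right of each panel come from tables deposited separately for 1 h and 12 h.

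GMI1, a gene named for its induction by gamma irradiation and mitomycin C, was the member from the DNA damage list. It had 0.525, 0.642 and 0.549 TPM in Col and 3.36, 3.9 and 3.13 in ino80 at 21 °C and 1 h, and 0.685, 0.8 and 0.37 against 2.99, 2.72 and 2.46 at 27 °C and 1 h. At 12 h it had 1.01, 1.06 and 1.17 against 5.67, 4.29 and 5.22 at 21 °C, and 1.51, 1.64 and 1.51 against 7.55, 5.53 and 6.97 at 27 °C. GMI1 did not overlap between genotypes, while the calls in the rest of its list went in both directions. Of 12 others tested at 1 h, 2 were higher and 1 lower at 21 °C and 3 higher and 3 lower at 27 °C, and of 14 tested at 12 h, 2 were higher and 2 lower at each temperature. Over all tested genes 15.4% to 18.7% were higher and 11.5% to 20.5% lower, so these counts are near the background or too small to stand apart from it. The repair gene KU80 was higher by 0.57, 0.60, 0.56 and 0.42 (highest adjusted p = 0.002) and SOG1, the transcription factor of the damage response, by 0.42, 0.26, 0.53 and 0.49 (highest adjusted p = 0.035). TSO2, which encodes a ribonucleotide reductase subunit, was lower by -0.74, -0.91, -0.33 and -0.36 (highest adjusted p = 0.0062).

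AT3G03776, annotated as a hydroxyproline-rich glycoprotein, had the largest mean difference of all members, 3.42, and among the steadiest. It had 1.3, 2.8 and 1.91 TPM in Col and 33.8, 32 and 38.3 in ino80 at 21 °C and 1 h, and 1.46, 1.35 and 1.1 against 22.4, 23 and 25.1 at 27 °C and 1 h. At 12 h it had 0.239, 1.17 and 0.166 against 15.3, 11.8 and 15.7 at 21 °C, and 0.334, 0.522 and 0.639 against 15.3, 12.3 and 13.1 at 27 °C. Each ino80 library was well above each Col library. AT4G29200, annotated as related to beta-galactosidase, was nearly absent from Col, where its highest library had 0.172 TPM, an estimated 1.94 fragments, and 2 libraries were listed at 0. Its ino80 libraries had 3.3, 3.55 and 3.65 TPM at 21 °C and 1 h, 3, 3.35 and 3.86 at 27 °C and 1 h, 8.49, 8.98 and 7.19 at 21 °C and 12 h, and 14.3, 9.5 and 10.8 at 27 °C and 12 h. Its lowest ino80 library held an estimated 42.6 fragments.

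Several members encode proteins of the cell surface or of defence. PERK12, a receptor-like kinase of the proline-rich extensin type, had 0.569, 0.523 and 0.723 TPM in Col and 4.62, 5.29 and 4.02 in ino80 at 21 °C and 1 h, and 0.278, 0.326 and 0.608 against 4.49, 4.16 and 4.87 at 27 °C and 12 h. EARLI1, of the lipid transfer protein family, had 5.76, 5.61 and 4.87 against 22.6, 23.4 and 19.4 TPM at 21 °C and 1 h, and 5.45, 3.16 and 3.74 against 28.4, 45.9 and 34.9 at 21 °C and 12 h. LCR67, a small cysteine-rich protein of the defensin family, had 1.13, 4.33 and 1.44 against 23.5, 14.9 and 17.9 TPM at 21 °C and 1 h, and 0, 1.95 and 2.27 against 5.92, 31.7 and 15 at 27 °C and 12 h. All of these were apart between genotypes, PERK12 by 1.81 to 2.15 and EARLI1 by 1.19 to 2.87. TI2, a trypsin inhibitor, had a mean TPM of 12.5 over the Col libraries and 38.4 over the ino80 libraries, and AT2G38390, annotated as a peroxidase, 24.4 and 69.4. AT5G39110, annotated as a cupin, had 1.87 and 11.9, and 4 transcripts elsewhere in the annotation match it at 90.2% to 94.7% identity over nearly their whole length. How the reads of such copies were counted is not given in the sources used here, and no copy had more than 1.82 mean TPM in a genotype at either time, the value of AT5G39120 in ino80 at 12 h.

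Members with roles in metabolism were spread over many pathways. NAS2, which makes the metal chelator nicotianamine, had 3.44, 3.21 and 2.58 TPM in Col and 17.7, 14.6 and 15.6 in ino80 at 21 °C and 1 h, and 4.48, 4.1 and 5.22 against 13.4, 13.6 and 9.38 at 27 °C and 1 h. LHCB4.3, a minor antenna protein of photosystem II, had 35.5, 32.2 and 33.5 against 77.1, 78.2 and 73.2 TPM at 21 °C and 1 h, and 12.4, 9.28 and 7.41 against 37.2, 44.4 and 39.8 at 27 °C and 12 h. In that setting the summed TPM of the green shoot genes was 54633 to 61616 in Col and 44517 to 49553 in ino80, the opposite order. AAE18, an acyl-activating enzyme, had a mean TPM of 14 over the Col libraries and 43.1 over the ino80 libraries. The ino80 libraries of these 3 genes lay above the Col libraries in all settings. AT5G05480, annotated as a peptide N-glycanase, had 16.4 against 40.6, AT1G78450, a SOUL heme-binding family gene, 23.3 against 68.8, and LpxK, annotated with a kinase of lipid A synthesis, 2.23 against 6.18. AT1G76530, of the auxin efflux carrier family, had 2.55 against 7.09, and AT3G51450, of the calcium-dependent phosphotriesterase family, 4.32 against 13.4. AT5G41120, an esterase family gene, had 2.92 against 7.23 and shares 271 bases with the gene AT5G41110 on the opposite strand. AT2G12190, a cytochrome P450, had 6.03 against 20.3. Its near copy AT1G64950, 94.4% identical, was more abundant, with mean TPM of 176 in Col and 144 in ino80 at 1 h. In the order of the settings AT1G64950 differed by -0.36, -0.16, 0.24 and 0.28, where AT2G12190 differed by 1.567, 1.566, 1.428 and 1.805. A further near copy, AT1G64940, 92.8% identical, differed in the direction of AT2G12190, by 0.67, 0.44, 0.96 and 0.81.

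The least described members include the most abundant ones. AT2G25510, an uncharacterized gene, had 34.1, 26.3 and 31.7 TPM in Col and 75.7, 52.9 and 71.5 in ino80 at 21 °C and 1 h, and 41.5, 44.7 and 40.6 against 336, 425 and 361 at 21 °C and 12 h. At 27 °C and 12 h it had 15.5, 14.1 and 7.81 against 113, 234 and 140. Its difference was 1.09 and 1.06 at 1 h and 3.11 and 3.58 at 12 h, the widest range of any member. AT5G42530, also uncharacterized, had 2.5, 0.338 and 1.72 against 19.3, 13.4 and 16.2 TPM at 21 °C and 1 h, and 24.5, 31.6 and 22.8 against 213, 441 and 285 at 27 °C and 12 h. The transcripts of these 2 genes share a stretch of 278 bases at 86.0% identity. AT1G68250 had 4.99, 2.05 and 3.49 against 24.4, 19.2 and 25.8 TPM at 21 °C and 1 h, and 3.27, 3.84 and 9.54 against 13.6, 32.8 and 27.9 at 27 °C and 12 h. AT5G50335 had 0.379, 0.188 and 0.674 against 4.4, 4.39 and 5.16 at 21 °C and 1 h, and 70.4, 56.6 and 47.9 against 193, 194 and 203 at 27 °C and 12 h. Its Col level was thus under 1 TPM at 1 h and above 20 TPM at 12 h, in tables that were deposited separately. The remaining members without a described function were AT2G24945, with 7.29 mean TPM over the Col libraries and 27.7 over the ino80 libraries, AT1G55265 with 24.2 and 63.4, AT3G04960 with 1.2 and 7.85, and AT5G15360 with 0.702 and 3.12. The transcripts of AT3G26800 and AT4G36925 match AT2G24945 at 95.7% and 98.1% identity. A long noncoding RNA gene on the opposite strand overlaps AT1G55265 over 682 bases. How reads of such copies and overlaps were counted is not given in the sources used here. ATCG00120, whose identifier is of the chloroplast genome and which was not found in the reference annotation, had 17.6, 20.6 and 21 TPM in Col and 89.3, 67.3 and 66.6 in ino80 at 21 °C and 1 h, and 18, 13.1 and 15.7 against 35.8, 33.5 and 32.9 at 27 °C and 12 h. Other genes with chloroplast identifiers moved with it at 1 h. Of 71 tested, 37 were called higher and 2 lower in ino80 at 21 °C and 1 h, and 67 higher and 1 lower at 27 °C and 1 h, with median differences of 0.56 and 1.42. The summed TPM of all such genes at 27 °C and 1 h was 799 to 1014 in Col and 2078 to 2574 in ino80. At 12 h, 5 of 70 were higher and 3 lower at 21 °C and 4 higher and 4 lower at 27 °C, with medians of 0.05 and 0.03, while ATCG00120 differed by 1.23 and 1.09. Over all tested genes the shares higher were 15.4%, 17.1%, 16.7% and 18.7% in the order of the settings. Those lower were 20.5%, 20.4%, 12.1% and 11.5%, so the 12 h counts lay under the shares of all genes. The part of chloroplast RNA content in the 1 h difference of ATCG00120 was not tested.

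As a set, 6 of the 40 members found in the RefSeq annotation, 15.0%, had a product line of an uncharacterized or hypothetical protein, against 7.77% of all genes. The other families searched by words in the product lines held 0 to 3 members. Those with more than 1 were transcription factors, 7.5% against 5.35% of all genes, and kinases, 5.0% against 5.52%. Peroxidases and glutathione transferases made up 5.0% against 0.67%, and lipid transfer proteins and lipases 5.0% against 0.97%. The search missed AT4G34400, ERF15 and RPL among the transcription factors. The members were scattered over the genome, with 15 of 40 on chromosome 5, 37.5% against 23.4% of all genes, 8 on chromosome 2, 7 on chromosome 1, 6 on chromosome 3 and 4 on chromosome 4. No members were direct neighbours, and 1 pair lay within 20 genes of each other, AT1G55265 and AAE18, 6 genes apart. No member lay within 100 genes of INO80 on chromosome 3, where the nearest, AT3G51450, was 543 genes away. Their median exon length was 1380 bases against 1710 in all genes, their median number of exons 2.5 against 4, and their median GC content 42.1% against 41.3%. These shares and medians describe the set and carry no test.

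Whether the members also responded to warmth was tested on the change from 21 °C to 27 °C averaged over both genotypes. With equal group sizes, this contrast is independent of the genotype differences that chose them only if the groups have equal spread. That was not so in all members, as SESA5 at 27 °C and 1 h had 0.325 to 11.2 TPM in Col and 24.3 to 28 in ino80. Members near 0 in Col, such as AT4G29200, were tested only because of their ino80 libraries. After 1 h, 6 of 41 members rose and 9 fell (limma, adjusted p < 0.05 over 19190 genes), where 22.1% of all tested genes rose and 23.9% fell, and 26 did not pass. After 12 h, 15 rose and 11 fell among 19578 tested genes, of which 44.7% rose and 24.6% fell, and 15 did not pass. The median change of the members was -0.016 at 1 h and 0.135 at 12 h, close to the medians of all tested genes, -0.002 and 0.141. With libraries rescaled by the median of ratios, the 12 h median of all genes moved to 0.011 and the split to 10 members up and 13 down, against 33.6% and 33.3% of all genes. The 12 h calls of AT1G78450, AT2G19910, LpxK, GMI1 and CRA1 were lost with that scaling. Read against the shares of all genes, none of the members' counts stood well above the background.

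The largest changes were those of the anthocyanin members. GSTF12 fell by 4.29 ± 0.237 (SE, adjusted p = 7e-10) and AT5MAT fell by 3.12 ± 0.15 (adjusted p = 1.6e-10) after 12 h, and both had risen after 1 h, by 0.37 ± 0.051 (adjusted p = 2e-05) and 0.37 ± 0.047 (adjusted p = 1.2e-05). The 12 h fall was present in each genotype, with -4.60 in Col and -3.98 in ino80 for GSTF12 and -3.22 and -3.03 for AT5MAT. AAE18 had the same pattern in smaller size, 0.21 at 1 h (adjusted p = 0.00032) and -0.88 at 12 h (adjusted p = 5.1e-08). AT2G25510 fell by 1.496 ± 0.165 at 12 h (adjusted p = 1.3e-06) and changed by -0.02 at 1 h (adjusted p = 0.88). AT2G38390 also fell at 12 h, by 0.92 (adjusted p = 1.3e-05). EARLI1 changed by -0.77 at 12 h (adjusted p = 0.00012) and -0.25 at 1 h (adjusted p = 0.016), LHCB4.3 by -0.70 (adjusted p = 5.9e-05) and -0.41 (adjusted p = 2.4e-07), and AT1G76530 by -0.46 (adjusted p = 0.0019) and -0.41 (adjusted p = 0.00057).

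The members that rose most after 12 h were AT1G68250, by 1.47 ± 0.336 (adjusted p = 0.0013), AT5G50335, by 1.25 ± 0.073 (adjusted p = 1.1e-09), and AT5G05480, by 1.19 ± 0.056 (adjusted p = 1.2e-10). PAP85 followed with 1.18 ± 0.209 (adjusted p = 0.00015), AT5G42530 with 1.04 ± 0.178 (adjusted p = 0.00011) and TI2 with 1.02 ± 0.109 (adjusted p = 9.1e-07). AT5G50335 had fallen after 1 h, by 0.53 ± 0.119 (adjusted p = 0.0018), and AT5G05480 had risen slightly, by 0.21 (adjusted p = 0.011). The Col libraries of AT5G50335 held only 0 to 0.674 TPM at 1 h, so it passed the filter on low values only through ino80. The change of AT5G50335 at 1 h was -0.26 in Col, near the floor, and -0.80 in ino80. AT5G41120 and AT5G05480 were the members that rose at both times, the first by 0.34 (adjusted p = 0.0022) and 0.46 (adjusted p = 0.00093). Among the regulators, ERF15 fell by 0.48 ± 0.062 at 1 h (adjusted p = 1.1e-05) and RPL by 0.34 ± 0.054 (adjusted p = 7.6e-05), and neither passed at 12 h, with 0.03 (adjusted p = 0.86) and 0.13 (adjusted p = 0.079). AT3G03776 fell by 0.45 at 1 h (adjusted p = 0.0016). PERK12 rose by 0.24 at 1 h (adjusted p = 0.024), a call lost without any 1 of 3 libraries. Its Col libraries held 0.523 to 0.958 TPM at 1 h, so PERK12 too passed the filter only through ino80. FLC rose at 12 h by 0.34 ± 0.075 (adjusted p = 0.00088), and its 1 h change of -0.15 (adjusted p = 0.032) was lost in 8 of 12 fits that left out a library. MAF5 changed by 0.05 and 0.13 (adjusted p = 0.69 and 0.29).

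**Figure D4:**
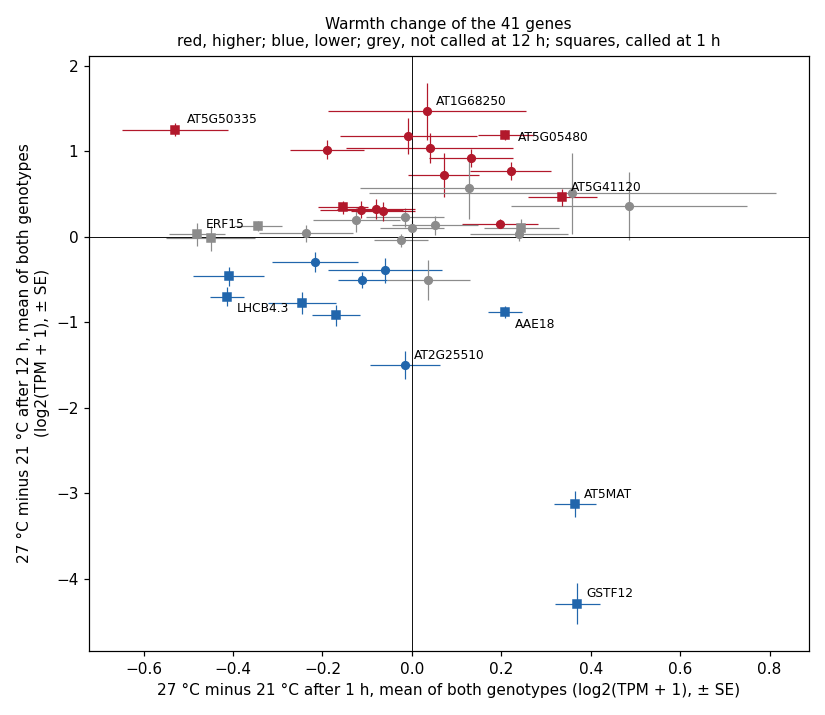
Change from 21 °C to 27 °C in log2(TPM + 1), averaged over both genotypes, after 1 h (x axis) and after 12 h (y axis) for the 41 genes, with bars for ± SE. Red and blue mark genes called higher and lower at 12 h, squares genes called at 1 h. GSTF12 and AT5MAT lie alone at the lower right, at -4.29 and -3.12 after 12 h.

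The sign of the warmth change was the same in Col and in ino80 in 28 members at 1 h and in 34 at 12 h, which is a count of values and not a test. That count was not made over all tested genes, so nothing particular to the members is read from it. The change within a genotype shares a group with the rule's own contrast, so no test of the difference between genotypes is given. NAS2 had opposite changes at 1 h, 0.46 in Col and -0.39 in ino80, without overlap between temperatures in either genotype.

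Whether a gene chosen at 1 time is also higher in ino80 at the other can be asked of libraries that did not choose it, because the 2 tables share no library. At 1 h, 112 genes had a difference of 1 or more at both temperatures, and 106 of them passed the filter on low values at 12 h. Of the 106, 12 had chloroplast identifiers, ATCG00120 among them. Of all 106, 73, or 68.9%, were called higher in ino80 at 21 °C and 12 h and 69, or 65.1%, at 27 °C and 12 h (limma, adjusted p < 0.05). Both calls were made for 66, or 62.3%, where 11.2% of all tested genes had both. Their median differences were 0.81 and 0.95, against 0.035 and 0.053 in all tested genes. The filter counts ino80 libraries too, so a gene near 0 in Col, such as AT4G29200, passed it only by being higher in ino80. The shares of the tested genes are raised by this, and of all 112 chosen genes 66 had both calls. At each temperature 1 gene was called lower, ATCG00330 at 21 °C with -0.60 and KCS8, which encodes an enzyme of very long chain fatty acid synthesis, at 27 °C with -0.24.

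In the opposite direction, 190 genes were chosen at 12 h and 168 of them were tested at 1 h. There 96, or 57.1%, were called higher at 21 °C, 105, or 62.5%, at 27 °C, and 87, or 51.8%, at both, where 10.9% of all tested genes were. The same limit of the filter holds here, and of all 190 chosen genes 87 had both calls. Lower calls were made for 5 genes at each temperature, among them AZI1, a relative of EARLI1, with a mean difference of 1.87 at 12 h and of -0.40 and -0.47 at 1 h, and ELIP1, an early light-induced protein gene, with 1.15 at 12 h and -0.42 and -0.47 at 1 h. Leaving out any 1 library, the count called at both temperatures was 61 to 67 for the genes chosen at 1 h and 84 to 105 for those chosen at 12 h. The 41 members are in both selections.

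**Figure D5:**
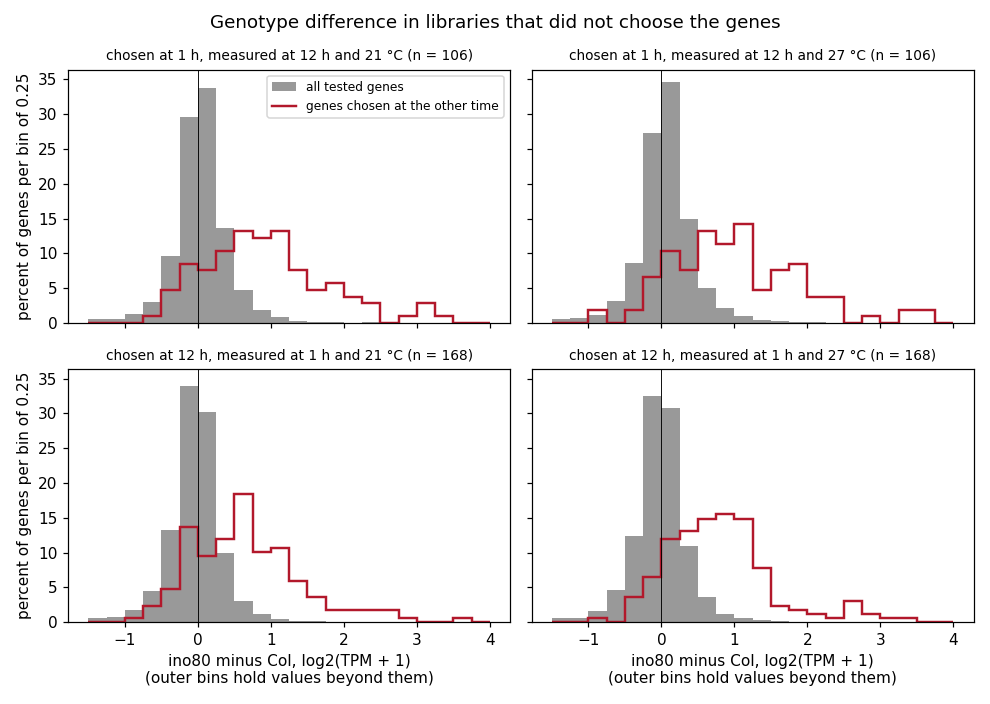
Percent of genes (y axis) by difference in log2(TPM + 1), ino80 minus Col, in bins of 0.25 (x axis), for genes chosen at the other time (red line) and for all tested genes (grey). The upper panels measure at 12 h the 106 genes chosen at 1 h and the lower panels at 1 h the 168 chosen at 12 h, at 21 °C on the left and 27 °C on the right. The red distributions lie to the right of the grey ones in all 4 panels.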

How the data were processed

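RNA was measured in 24 libraries of total RNA from seedlings, taken with a Takara kit and prepared with the NEBNext Ultra kit, per the labels' protocols. The deposited values are TPM that the authors had already computed, with 1 table per time. Per the submitters' processing notes, which give no role or order, DESeq2 1.26.0, HTSeq 0.11.2, HISAT2 2.1.10 and fastp 0.20.1 are named, with build TAIR10. The strand setting and the filter behind each table are not given in the sources used here. Each table has 1 header name fewer than columns, so the first name was taken for the first value column, and groups came from the labels.

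The members, gene lists and motifs were chosen with earlier results of these data known. Differences were taken on log2(TPM + 1). Genes with at least 1 TPM in at least 3 of 12 libraries were fitted per table with limma 3.58.1 (R 4.3.3; 4 group means, trend, Benjamini-Hochberg, two-sided, adjusted p < 0.05), after the code was tested on simulated data. Named are the members with the largest differences, levels and warmth changes, those on a list, those at the threshold, and others for their role. Other genes of a list were named after their values were seen. Depth was estimated from the steps between low TPM values times the RefSeq gene length, of which 25.2% to 39.2% lay within 0.05 of a whole fragment in a library, so no count test was run. Symbols, windows and gene order came from RefSeq's TAIR10.1, where 40 of 41 members were found. Copies were found with blastn 2.17.0, at 90% identity over at least 50% of the shorter transcript. Alternatives were other pseudocounts, filters and scalings, a replicate term, and leaving out each library.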

Additional observations from a re-analysis of the deposited data

Results flagged for a closer look

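NAS2, the nicotianamine synthase gene, changed in opposite directions with warmth at 1 h. Its mean log2(TPM + 1) was 0.46 higher at 27 °C than at 21 °C in Col and differed by -0.39 in ino80. All 3 warm Col libraries lay above the 3 cool ones, and all 3 warm ino80 libraries lay below the 3 cool ones. The difference between the genotypes was not tested, because the rule that chose the gene used the same groups.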

How the results depend on the processing

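The set of 41 genes depends on the pseudocount and the threshold. It held 25 genes with a pseudocount of 2, 56 with 0.5, and 10 with a difference of 1.5 or more. It kept 40 of its genes under median-of-ratios scaling and 39 under quantile normalization. Leaving out 1 library gave 39 to 46 genes, and 30 of the 41 stayed in every such set. The number of members with a warmth call ran from 13 to 19 at 1 h and from 23 to 27 at 12 h when 1 library was left out. Of the 41 warmth calls, 31 held under every alternative, 9 were lost without 1 library at least once, 7 under another alternative, and 0 reversed. The genes chosen at 12 h and called at both temperatures at 1 h numbered 56 with a mean TPM of at least 5, which tests fewer genes, and 84 to 105 without 1 library, and the other direction gave 61 to 67. The 105 came without replicate 2 of Col at 21 °C and 1 h. The INO80 difference at 21 °C and 12 h was -0.28 (adjusted p = 0.0591) with a pseudocount of 5 and -0.34 (adjusted p = 0.0658) with no filter, and the cause was not tested. Without 1 library it ran from -0.39 to -0.31 and lost its call in 7 of 12 fits (adjusted p = 0.126 at the highest), and in the other settings from -0.50 to -0.38 and from -0.52 to -0.41 at 1 h and from -0.70 to -0.44 at 27 °C and 12 h. Replicate numbers are shared between groups. The correlations of the deviations of same-numbered libraries lay between -0.052 and 0.12 in the 1 h table and between -0.289 and 0.203 in the 12 h table. In ino80 at 12 h, however, CRA1, SESA5, CRU3, PAP85, AT1G68250 and LCR67 were all lowest in replicate 1 at both temperatures. With a replicate block, 15 members were called at 1 h and 27 at 12 h, 66 and 87 chosen genes were called at the other time, and the INO80 differences were -0.44, -0.45, -0.34 and -0.59. Depth limits the low genes: 1 fragment in 1 kb was worth an estimated 0.0666 to 0.129 TPM.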
